A study of Mus musculus with 4 samples.

Results

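The circular RNAs (circRNAs) described here come from 4 mouse genes that encode receptor tyrosine kinases: Fgfr2, Pdgfra, Met and Ephb4. A circRNA was counted to a member gene when both ends of its back-splice junction lay inside the RefSeq span of that gene on mm10, with a tolerance of 1 bp. This rule gave 45 of the 40909 circRNAs in the series, from 4 of 6930 host genes: 26 from Fgfr2, 11 from Pdgfra, 6 from Met and 2 from Ephb4. The cells were primary mouse articular chondrocytes, the cells that build and maintain joint cartilage, at passage 1 to 3. In the IL-1β group, 2 libraries were made from cells given 10 ng/ml recombinant human IL-1β (interleukin-1β) for 24 h; this cytokine drives inflammation and cartilage breakdown in joints. The control group had 2 libraries of the same cells, labelled without IL-1β, and cells of both groups were grown in DMEM with serum. The treatment text in the labels is the same for all 4 libraries, so the source label set the groups. The RNA was freed of ribosomal RNA, digested with RNase R, which removes most linear RNA, and made into strand-specific libraries. Whether the libraries within a group stem from different cultures or mice is not stated, so p-values reflect only the spread among these 4 libraries, and that spread may be technical.

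Receptor tyrosine kinases are membrane proteins that pair up when a ligand binds outside the cell and then phosphorylate each other inside it, which starts Ras, MAP kinase and phosphoinositide signalling. Fgfr2 encodes a fibroblast growth factor receptor with roles in skeletal growth, Pdgfra the platelet-derived growth factor receptor alpha found on mesenchymal cells, Met the receptor of hepatocyte growth factor, and Ephb4 a receptor of the membrane-bound ligand ephrin-B2. A circRNA forms when a downstream splice donor joins an upstream splice acceptor of the same transcript, so each circle has an upstream and a downstream end and is measured by reads that cross the join.

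The 4 genes lie on GRCm38 (mm10) at chr7:130162451-130266808 on the minus strand (Fgfr2), chr5:75151322-75198206 on the plus strand (Pdgfra), chr6:17463349-17573980 on the plus strand (Met) and chr5:137350109-137374522 on the plus strand (Ephb4). All 45 circles were on the strand of their gene. Positions of exons were not used here, so exon or intron is not stated for any circle end. Both mature forms of miR-7025 are shown because RefSeq GRCm38.p6 places the hairpin inside Pdgfra at chr5:75176831-75176904 on the plus strand, and 5 of the 11 Pdgfra circles span that stretch of the genome. The capitals mark the seed, bases 2 to 8.
mmu-miR-7025-5p: cGUGAGCUgaagcugguggcuccc
mmu-miR-7025-3p: cAGCACAAcuccagcucaccag
The seeds differ. The 5 circles that span the hairpin had 0 and 13 reads in the IL-1β libraries, against 27 and 24 reads in the controls. A junction read does not show whether the hairpin is kept in the circle.

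The 250 bases before the RefSeq start of Fgfr2 (chr7:130266809-130267058, minus strand, RefSeq GRCm38.p6) are shown because Fgfr2 held most of the reads of the 4 genes and IL-1β is known to act through the transcription factors NF-κB and AP-1. The capitals mark the only match of a κB-type motif (GGG, any 5 bases, CC; searched on both strands), whose first base is 82 bases before the start.
Fgfr2 upstream window: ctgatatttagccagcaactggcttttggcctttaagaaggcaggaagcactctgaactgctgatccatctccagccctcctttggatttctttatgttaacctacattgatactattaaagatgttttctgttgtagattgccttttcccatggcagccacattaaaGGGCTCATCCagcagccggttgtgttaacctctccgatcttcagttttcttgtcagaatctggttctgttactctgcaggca
This κB-type motif occurs in 45.8% of 32851 such windows of RefSeq genes, so a match is common. The AP-1 motif TGANTCA, searched the same way, had no match in the Fgfr2 window and occurs in 6.75% of all windows. The windows of Pdgfra, Met and Ephb4 held 2, 3 and 3 κB-type matches, some of which overlap, and Met alone of the 4 held an AP-1 match. However, the windows of Pdgfra (chr5:75152001-75152250) and Met (chr6:17463707-17463956) lie inside the gene spans given above. Their matches are therefore not upstream of those starts. A match is a run of letters and not a measured binding site.

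The 4 libraries held 895774 and 980542 junction reads with IL-1β, against 1198010 and 1203855 in the controls, so both IL-1β libraries had fewer junction reads. Sequencing depth overlapped between the groups by the authors' depth-scaled signal (SRPBM). A unit of it stood for 11.9 and 13.4 junction reads with IL-1β, against 11.8 and 16.1 in the controls. Levels are given as counts per library scaled to 1000000 junction reads (CPM), adjusted by edgeR's TMM factors. A junction count does not scale with the length of the circle, but a gene's sum grows with its number of circles. Intervals and floors cover the counting error of independent reads only. PCR reads without molecular identifiers are not independent molecules, so these intervals and floors may be too narrow. Of 16 chondrocyte marker genes, 5 gave circles, led by Sox5, Sox6 and Hapln1, and their summed level was 265 and 325 CPM with IL-1β, against 402 and 239 CPM in the controls. Sox9, Col2a1 and Acan had 0 junction reads, but junction reads of circles are not mRNA levels. The fibroblast markers with circles, 4 of 8, summed to 80.7 and 29.3 CPM with IL-1β, against 81.9 and 182 CPM in the controls. Runx2, the only osteoblast marker with circles, stood at 366 and 364 CPM with IL-1β, against 267 and 438 CPM in the controls. Leukocyte markers had 0 reads throughout, and of 5 endothelial markers only Pecam1 had any, at 8.73 CPM in IL-1β replicate 1. The part of these differences in the results below was not tested.

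The first comparison asked how much circRNA each receptor gene gave with and without IL-1β, summed over its circles. Circular output of Fgfr2 was lower in both IL-1β libraries than in both controls, by 1.48-fold on average, and this was the most precisely measured of the 4 genes. Pdgfra and Ephb4 were also lower without overlap, on few reads, and Met overlapped between groups. None of the 4 passed edgeR's quasi-likelihood test after Benjamini-Hochberg adjustment over 4879 hosts with at least 20 reads, where 0% of hosts passed. Of those hosts, 18.9% had both IL-1β libraries below both controls, as 3 of these 4 genes did.

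Fgfr2 had 2624 and 2807 junction reads in the IL-1β libraries, against 4540 and 5422 in the controls. It ranked 26 among all hosts by reads and 1 among the 28 receptor tyrosine kinase genes with circles. In CPM it stood at 2862 and 2838 with IL-1β, against 3795 and 4643 in the controls, or 2850 ± 16.8 with IL-1β, against 4219 ± 600 in the controls (SD, n = 2 each). The IL-1β libraries lay close together and the controls farther apart, and the gap between the groups was larger than the spread within either. The log2 change was -0.57 ± 0.17 (SE), with an edgeR unadjusted p of 0.0097 and an edgeR adjusted p of 0.882. Of all tested hosts, 2.46% were lower at an edgeR unadjusted p under 0.05, and Fgfr2 was the only member among them. DESeq2, run as an alternative, gave Fgfr2 an adjusted p of 0.0274, a call that 0.677% of the hosts it adjusted received in this direction, so the call rests on the tool. In these bulk samples, fewer cells of a type and less RNA per cell cannot be told apart. The authors' own depth-scaled values (SRPBM) summed to 220 and 209 with IL-1β, against 385 and 337 in the controls.

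Pdgfra gave 19 and 36 junction reads with IL-1β, against 72 and 49 in the controls. Its level was 28.6 ± 11.1 CPM with IL-1β, against 51.1 ± 12.9 CPM in the controls (SD, n = 2 each), and the nearest libraries of the groups stood at 36.4 CPM (IL-1β replicate 2) and 42.0 CPM (control replicate 2). The log2 change of -0.83 had a standard error of 0.70, with an edgeR adjusted p of 0.990. The difference is thus not resolved from the spread between libraries at this depth.

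Met had 71 and 85 junction reads with IL-1β, against 87 and 163 in the controls. In CPM the IL-1β libraries stood at 77.4 and 85.9 and the controls at 72.7 and 139.6, so the IL-1β values lay between the controls. The log2 change was -0.38 ± 0.46 (SE; edgeR adjusted p = 1.00), and without control replicate 2 it was 0.15. The direction for Met therefore rests on 1 control library.

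Ephb4 had 0 and 10 reads with IL-1β, against 13 and 26 in the controls. The count of 0 in IL-1β replicate 1 allows up to 3.27 CPM there, and the other libraries stood at 10.1 CPM (IL-1β) and at 10.9 and 22.3 CPM (controls). The log2 change of -1.68 had a standard error of 2.22 (edgeR adjusted p = 1.00). Ephb4 ranked 3756 among hosts, Pdgfra 2330 and Met 1532, so Fgfr2 carries the weight of the results.

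**Figure D1:**
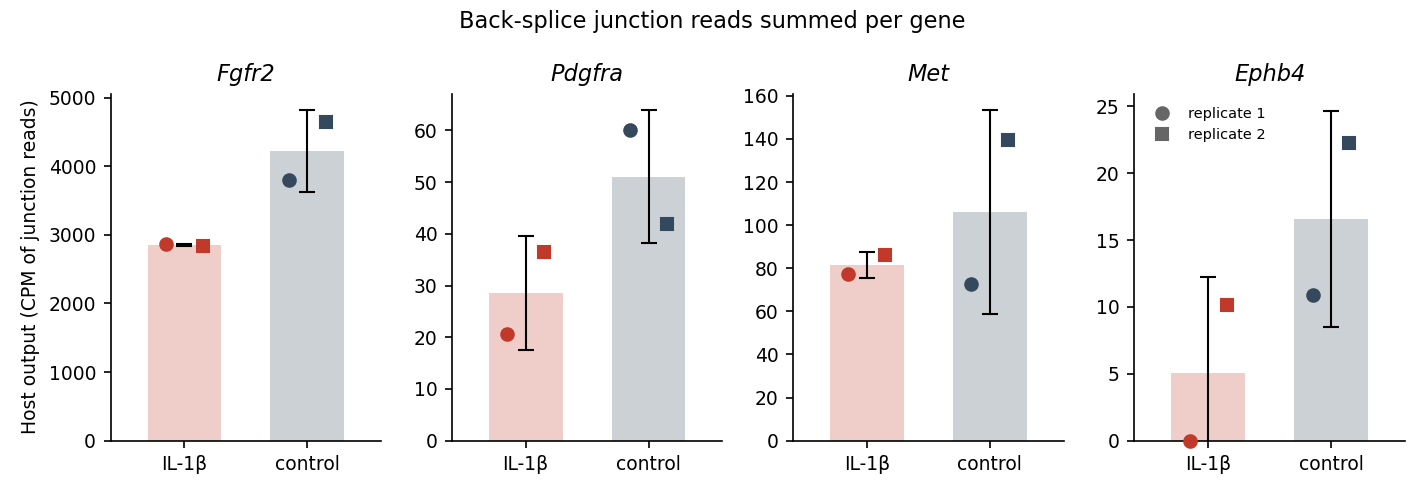
Host output in CPM (vertical axes, each from 0) summed over the circles of Fgfr2, Pdgfra, Met and Ephb4, with points for the libraries, bars for group means and lines for ± SD (n = 2). Fgfr2 stood at 2862 and 2838 CPM with IL-1β, below 3795 and 4643 CPM in the controls, while the IL-1β values of Met lay between its controls.

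The next comparison took the circles apart. Of the 45 circles, 25 had at least 20 reads and were tested: 18 of Fgfr2, 3 of Pdgfra, 3 of Met and 1 of Ephb4. The other 20 circles had too few reads for a test. None of the 25 passed edgeR's adjustment over 15333 circRNAs, of which 0.0196% passed. Fgfr2 had 13 circles lower and 5 higher with IL-1β, with a median log2 change of -0.44 beside -0.05 over all tested circRNAs. These 18 circles share a gene and often an end, so they are not independent. Among the 18 tested Fgfr2 circles, 6 had both IL-1β libraries below both controls and 2 had both above, beside 17.2% and 16.4% of all tested circRNAs. All of these were among the 14 Fgfr2 circles with at least 100 reads.

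The leading Fgfr2 circle, circRNA.34440, spans chr7:130218998-130242644 and held 59.6% of the gene's reads. It had 1410 and 1556 reads with IL-1β, against 2816 and 3392 in the controls. Its level was 1572 ± 31.8 CPM with IL-1β, against 2594 ± 259 CPM in the controls (SD, n = 2 each), or 1.65-fold lower with IL-1β and without overlap. The log2 change was -0.72 ± 0.20 (SE), with an edgeR unadjusted p of 0.0093 and an edgeR adjusted p of 0.886. At an edgeR unadjusted p under 0.05, 1.62% of circRNAs were lower, and 2 Fgfr2 circles were among them. DESeq2 gave circRNA.34440 an adjusted p of 0.00459, a call in this direction that 0.569% of the circRNAs it adjusted received. The other 25 Fgfr2 circles together stood at 1334 and 1282 CPM with IL-1β, against 1476 and 1662 CPM in the controls, 1.2-fold lower.

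The second Fgfr2 circle with an unadjusted p under 0.05, circRNA.34432, spans chr7:130196178-130219121. It had 15 and 29 reads with IL-1β, against 69 and 90 in the controls, a log2 change of -1.52 ± 0.60 (SE; edgeR unadjusted p = 0.0425, edgeR adjusted p = 0.886). Both IL-1β libraries were below both controls. The size of this change depends on keeping circRNA.34427 apart, which has the same upstream end and closes 6 nt away. Summed within 10 nt, these circles together had a log2 change of -0.65. Another circle, circRNA.34444 at chr7:130228623-130262066, had 48 and 48 reads with IL-1β, against 89 and 167 in the controls, with a log2 change of -1.06 ± 0.46 (SE).

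Lower values without overlap were also seen for 3 further Fgfr2 circles of at least 100 reads. The reads of circRNA.34433 were 110 and 72 with IL-1β, against 193 and 164 in the controls. Those of circRNA.34436 were 109 and 97 with IL-1β, against 177 and 167 in the controls. Those of circRNA.34443 were 125 and 135 with IL-1β, against 218 and 238 in the controls. Their log2 changes ran from -0.62 to -0.39, each less than 2 standard errors from 0. For circRNA.34436, the lack of overlap depends on keeping circRNA.34430 apart, which has the same upstream end and closes 6 nt away. In IL-1β replicate 1, circRNA.34436 stood at 119.8 CPM and circRNA.34430 at 51.7 CPM. The controls stood at 151.5 and 136.7 CPM for circRNA.34436 and at 0 for circRNA.34430.

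Both Fgfr2 circles with IL-1β values above the controls use the same downstream end, at position 130241200. The circle circRNA.34445, which spans 1445 bp and is the shortest of Fgfr2, had 251 and 277 reads with IL-1β, against 240 and 286 in the controls. In CPM this was 276 and 284 with IL-1β, against 205 and 234 in the controls, a log2 change of 0.35 ± 0.27 (SE). The circle circRNA.34446 had 62 and 35 reads with IL-1β, against 14 and 28 in the controls, a log2 change of 1.57 ± 0.75 (SE; edgeR unadjusted p = 0.0785). Its reads are few, so the size of that change is uncertain.

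In CPM, the other Fgfr2 circles of at least 100 reads overlapped between the groups. The reads of circRNA.34439 were 105 and 196 with IL-1β, against 208 and 202 in the controls, and those of circRNA.34441 were 123 and 167 with IL-1β, against 197 and 230 in the controls. The reads of circRNA.34438 were 77 and 84 with IL-1β, against 177 and 94 in the controls, and those of circRNA.34431 were 65 and 50 with IL-1β, against 76 and 142 in the controls. These 4 had log2 changes between -0.56 and -0.12. In circRNA.34427 the reads were 35 and 36 with IL-1β, against 13 and 57 in the controls, so the controls lay on either side. The most uneven was circRNA.34426, with 19 and 0 reads in the IL-1β libraries, against 0 and 101 in the controls, and among circles with fewer reads circRNA.34430 had 47 reads in IL-1β replicate 1 and 0 in each other library. Replicates of a group thus differed from absent to abundant for single circles, while the gene sum and the leading circle did not.

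**Figure D2:**
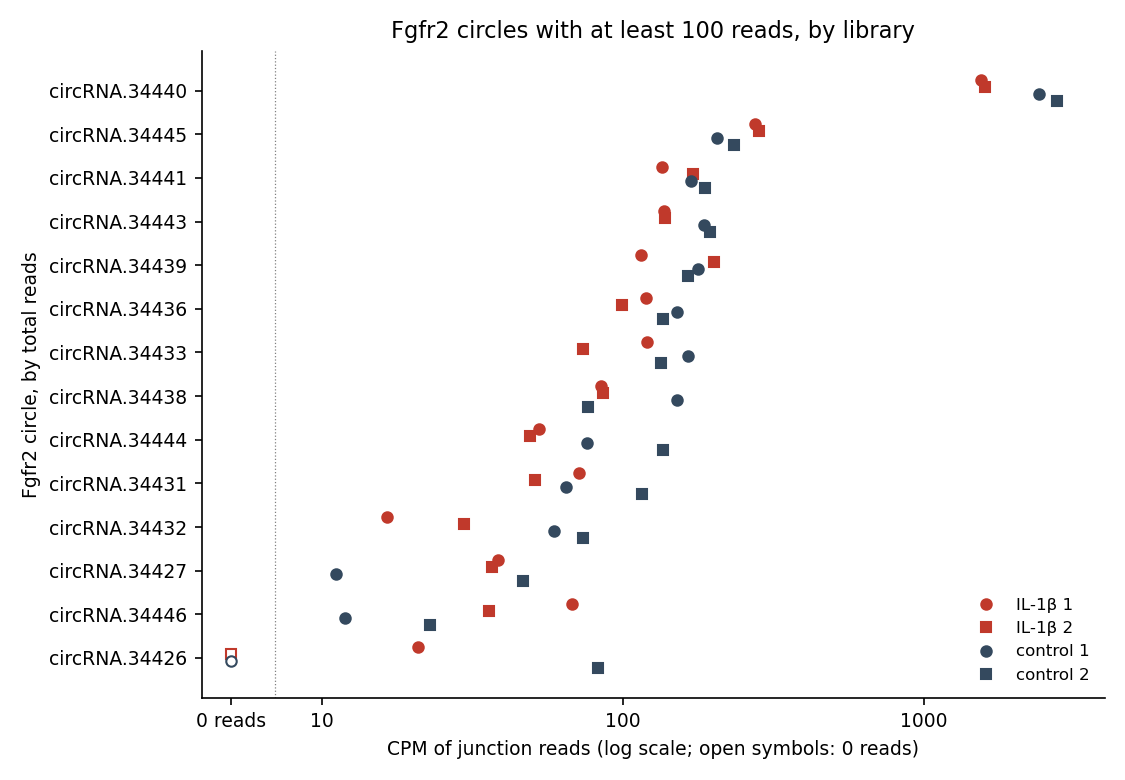
Level in CPM (horizontal axis, log scale) in each library of the 14 Fgfr2 circles with at least 100 reads in total, with open symbols for 0 reads. The leading circRNA.34440 averaged 1572 CPM with IL-1β, against 2594 CPM in the controls, and circRNA.34426 was at 0 reads in 1 library of each group.

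**Figure D3:**
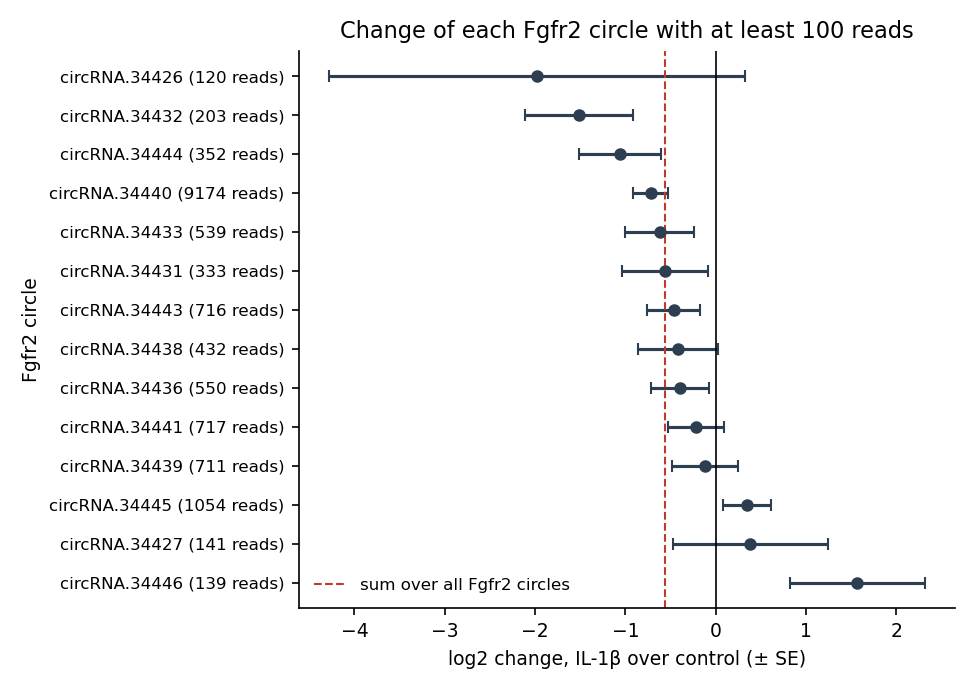
Log2 change with IL-1β over control (horizontal axis) of the same 14 Fgfr2 circles, with bars of 1 SE and a dashed line at the change of the gene sum. The changes ran from -1.98 for circRNA.34426 to 1.57 for circRNA.34446, 11 of them below 0 and 3 above.

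Whether the mix of Fgfr2 circles differed was examined through shares, in which the level of the gene cancels. The leading circle made up 53.7% (95% exact binomial interval 51.8 to 55.7) and 55.4% (53.6 to 57.3) of Fgfr2 reads with IL-1β, against 62.0% (60.6 to 63.4) and 62.6% (61.3 to 63.9) in the controls. The mean share with IL-1β minus that in the controls was -7.71 percentage points, a gap larger than the spread within either group. The 2-sided exact permutation test gave p = 0.333, the smallest that 2 against 2 libraries allow. A test of circle usage within hosts (diffSpliceDGE in edgeR, added after the data were seen) gave circRNA.34440 an adjusted p of 1.00 with a log2 usage change of -0.19, and called 0.0668% of 13473 circRNAs and none of Fgfr2.

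Fgfr2 circles drew on 10 upstream and 9 downstream ends, and used 26 of the 65 pairs that these ends allow. Of these ends, 6 upstream and 7 downstream served more than 1 circle. The upstream end at position 130242644, 24.2 kb from the gene's start, opened 6 circles that held 75.0% of Fgfr2 reads. Its share was 74.0% and 73.6% with IL-1β, against 76.0% and 75.3% in the controls, so both IL-1β libraries lay slightly below both controls. The downstream end at 130218998, 47.8 kb from the start, closed 4 circles with 65.4% and 71.4% of reads with IL-1β, against 74.8% and 72.3% in the controls. The downstream end at 130241200, 25.6 kb from the start, held 11.9% and 11.1% with IL-1β, against 5.59% and 5.79% in the controls. In CPM, its 2 circles summed to 332 ± 17.2 with IL-1β, against 237 ± 28.0 in the controls (SD, n = 2 each), the one downstream end of at least 1% of reads where IL-1β was above both controls. This end was singled out after its values were seen, so no test is given.

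**Figure D4:**
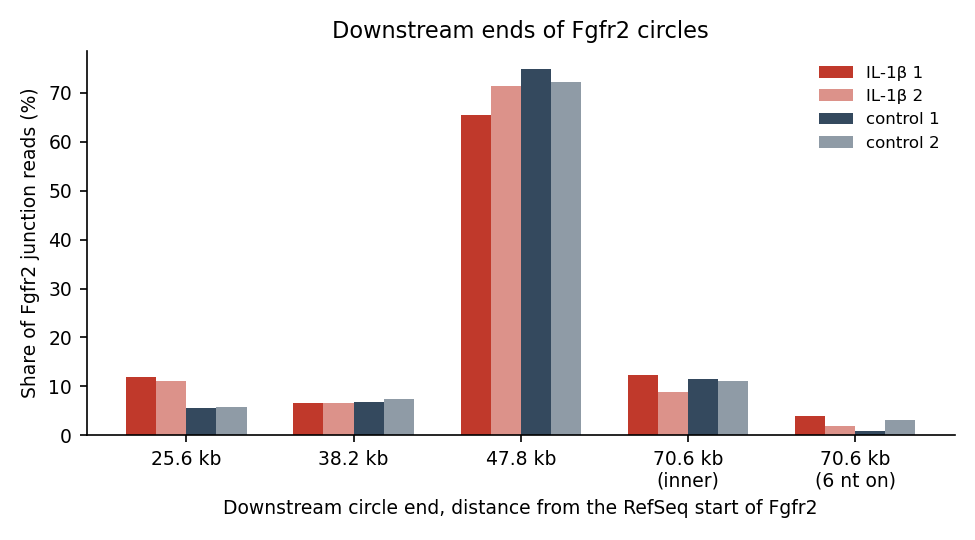
Share of Fgfr2 junction reads (vertical axis, percent) by downstream end in each library, for the 5 ends with at least 1% of reads, placed by distance from the RefSeq start. The end at 25.6 kb held 11.9% and 11.1% with IL-1β, against 5.59% and 5.79% in the controls.

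The closest pair of Fgfr2 downstream ends lay 6 nt apart, at positions 130196172 and 130196178, and 5 upstream ends joined to both. As background, FGFR genes are known to use alternative donor sites that add or leave out a valine-threonine pair in the juxtamembrane segment, where the adaptor Frs2 binds. Whether this pair of ends is that site was not examined. Among the reads of both ends, those of the end at 130196172 made up 23.9% (95% exact binomial interval 19.9 to 28.2) and 17.9% (13.7 to 22.7) with IL-1β, and 7.23% (5.24 to 9.68) and 22.7% (19.8 to 25.8) in the controls. The groups overlapped, and control replicate 1 stood apart from the other 3 libraries. Summing junctions within 10 nt joined circRNA.34427 with circRNA.34432, and their joint log2 change was -0.65. Kept apart, as deposited, circRNA.34427 had a log2 change of 0.38 and circRNA.34432 of -1.52.

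**Figure D5:**
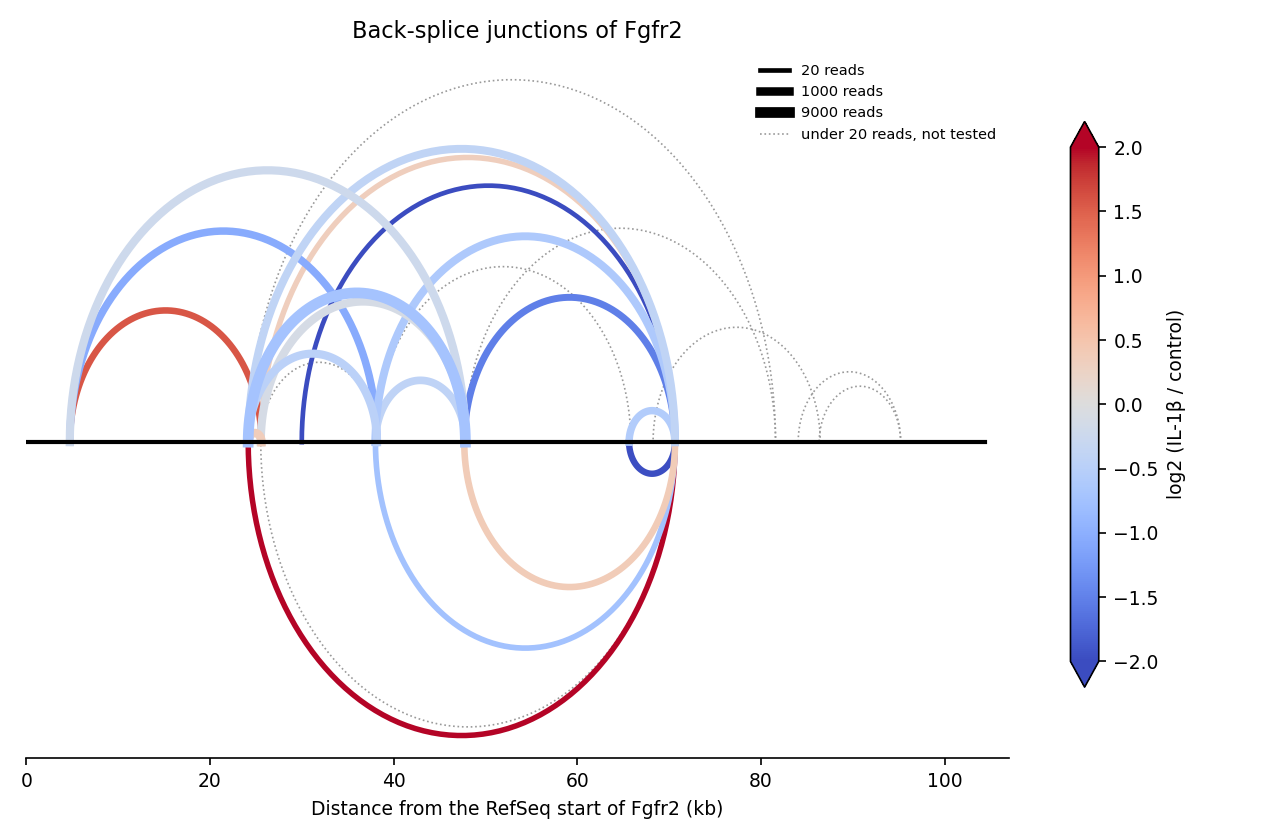
The 26 Fgfr2 circles as arcs between their ends, placed by distance from the RefSeq start (horizontal axis, kb), with width for reads and colour for the log2 change with IL-1β over control. Both circles that close 25.6 kb from the start have log2 changes above 0 (0.35 and 1.57), the widest arc, circRNA.34440, has -0.72, and the 5 circles that use the end at 130196172 are drawn below the line.

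Some upstream and downstream ends of Fgfr2 enclosed short stretches, of 78, 111, 124, 170 and 191 nt. Of these lengths, 78 and 111 are multiples of 3. Pdgfra had 3 such stretches, of 116, 127 and 242 nt.

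The Pdgfra circles were small in number of reads. The leading circle, circRNA.30936 at chr5:75162231-75163852, had 5 and 8 reads with IL-1β, against 40 and 4 in the controls, so its sum rests on control replicate 1. The circle circRNA.30941 at chr5:75173389-75178062 had 0 reads in both IL-1β libraries, against 16 and 11 in the controls, and was the only one of the 45 circles read in both libraries of 1 group and neither of the other. With a floor of 3 reads in place of 0 in each IL-1β library, its mean was 3.56-fold lower with IL-1β. That floor covers counting error in the IL-1β libraries alone and not the spread between libraries. The change was not resolved (edgeR unadjusted p = 0.132, edgeR adjusted p = 0.886). The remaining tested circle, circRNA.30945, had 0 and 12 reads with IL-1β, against 0 and 12 in the controls, the same in both groups.

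Met circles were led by circRNA.32078 at chr6:17487797-17492437, with 29 and 85 reads in the IL-1β libraries, against 53 and 101 in the controls, a log2 change of -0.10 ± 0.64 (SE). It supplied 40.8% and 100% of Met reads with IL-1β, against 60.9% and 62.0% in the controls. The circles circRNA.32079 (19 and 0 reads with IL-1β, 0 and 37 in the controls) and circRNA.32083 (20 and 0 with IL-1β, 26 and 25 in the controls) were missing from IL-1β replicate 2, which had only the leading circle. Of the 2 Ephb4 circles, circRNA.29458 had 0 and 10 reads with IL-1β, against 13 and 13 in the controls, and circRNA.29457 had 13 reads in control replicate 2 alone.

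Circles were counted in each library as a measure of variety. Fgfr2 gave 16 and 16 circles with IL-1β, against 19 and 19 in the controls, and the numbers were the same after thinning each library to 895774 reads. Thinning evened the junction reads of whole libraries and not the reads of Fgfr2. Before thinning, these were 2624 and 2807 with IL-1β, against 4540 and 5422 in the controls. Variety at equal Fgfr2 reads was not tested. Pdgfra gave 3 and 5 with IL-1β, against 4 and 6 in the controls, Met 4 and 1 with IL-1β, against 4 and 3 in the controls, and Ephb4 0 and 1 with IL-1β, against 1 and 2 in the controls. The 7 Fgfr2 circles read in the controls alone had 2 to 21 reads each, and the 3 read with IL-1β alone had 2 to 47. Across the 4 libraries, 13 of 26 Fgfr2 circles (50%) were read in each library, against 2 of 19 circles of the other 3 genes and 16.8% of all circRNAs. Those 13 circles held 97.8% of Fgfr2 reads. The shares were not matched for reads per circle.

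The receptor genes were set beside related hosts. Of 55 other receptor tyrosine kinase genes, 24 had circles and 19 were tested: 6 stood higher and 13 lower with IL-1β, 0 passed the adjustment, and the median log2 change was -0.13 beside -0.03 over all hosts. The most abundant were Insr, the insulin receptor, and Igf1r, the receptor of insulin-like growth factor. Insr stood at 2029 ± 261 CPM with IL-1β, against 2072 ± 513 CPM in the controls, and Igf1r at 1024 ± 23.8 CPM with IL-1β, against 1117 ± 184 CPM in the controls (SD, n = 2 each). Ephb2, another ephrin-B receptor, averaged 697 CPM with IL-1β, against 787 CPM in the controls, with overlap, and Lmtk2 stood at 352 and 432 CPM with IL-1β, against 470 and 530 CPM in the controls. Fgfr2 had a lower ratio to control than these 4 genes, but the difference between genes was not tested. Ror1, a receptor of the Wnt5a pathway, stood at 13.1 and 24.3 CPM with IL-1β, against 135 and 89.1 CPM in the controls, a log2 change of -2.57 ± 0.58 (SE; edgeR unadjusted p = 0.00215, edgeR adjusted p = 0.882, DESeq2 adjusted p = 0.00134).

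Among 29 ligands and co-receptors of the 4 receptors or of their families, 7 hosts were tested, 3 higher and 4 lower, and none passed the adjustment (median log2 change -0.22). Pdgfc, a ligand of Pdgfra, stood at 483 and 580 CPM with IL-1β, against 421 and 346 CPM in the controls, above without overlap. Pdgfd, a PDGF-family ligand that binds mainly the beta receptor, which is not among the 4 genes, stood at 897 and 814 CPM with IL-1β, against 1005 and 992 CPM in the controls, below without overlap. The co-receptor Nrp2 averaged 142 CPM with IL-1β, against 195 CPM in the controls, below without overlap. The heparan sulphate proteoglycan Gpc6 averaged 99.5 CPM with IL-1β, against 60.1 CPM in the controls, above without overlap. Of all tested hosts, 18.9% were below without overlap, and the share above was not determined. Among 35 signalling partners and feedback inhibitors, 19 were tested, 8 higher and 11 lower, and again none passed (median -0.23). Spred1, an inhibitor of Ras signalling, averaged 455 CPM with IL-1β, against 317 CPM in the controls, above without overlap. Its relative Spred2 averaged 1320 CPM with IL-1β, against 1209 CPM in the controls, with overlap. Sh3kbp1, an adaptor in receptor endocytosis, stood at 1704 and 2526 CPM with IL-1β, against 3661 and 2086 CPM in the controls, with overlap. The phospholipase gene Plcg1 averaged 315 CPM with IL-1β, against 397 CPM in the controls, below without overlap. Lrig3, a leucine-rich repeat membrane protein, stood at 56.7 and 118 CPM with IL-1β, against 186 and 188 CPM in the controls (log2 change -1.09 ± 0.42 SE, edgeR unadjusted p = 0.0323, edgeR adjusted p = 0.882).

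Hosts whose levels ran most like Fgfr2 over the 4 libraries, by the root mean square difference of centred log2(CPM + 1) among 2208 hosts with at least 200 reads, were Spen, Zfhx4 and Fkbp5, with differences of 0.048, 0.050 and 0.051. Spen stood at 2018 and 2087 CPM with IL-1β, against 2573 and 3152 CPM in the controls. The nearest hosts were Rb1cc1, Hbs1l and Apaf1 for Pdgfra, Hltf, Itpr1 and Prdm10 for Met, and Acss3, Rasa4 and Upf1 for Ephb4. With 4 libraries, this likeness is a description only.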

How the data were processed

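Back-splice junction reads of circRNAs were analysed in 4 libraries, 2 per group. Per the file headers, the deposited tables give whole-number counts of junction reads and SRPBM, a signal scaled for depth by the authors. The submitters' processing notes name Bowtie2 and mm10, while the caller of circRNAs, filters and duplicate handling were not given in the sources used here. All 4 single-library tables matched the series table. Junctions were placed in RefSeq genes of GRCm38.p6, and 96.7% of circRNAs had a host. Groups were tested on the counts by the quasi-likelihood method of edgeR 4.0.16 (R 4.3.3) with TMM scaling and the group as the sole term, for hosts and circRNAs with at least 20 reads, with Benjamini-Hochberg adjustment at 0.05. Standard errors were taken as the absolute log2 change over the root of F. Host levels use the factors of the host table and circle levels those of the circRNA table. Shares and intervals used Python 3.11.15 and scipy 1.17.1. The scripts were tested on simulated data.

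All 4 members were named, with circles of at least 100 reads or an unadjusted p under 0.05 in full, other circles of at least 20 reads where informative, the 4 most-read tested hosts of each list and those with an unadjusted p under 0.05, and the 3 most similar hosts. Circles with under 20 reads that are named were chosen after their values were seen. The members and lists were chosen with earlier results of these data known. Alternatives were a replicate block, DESeq2 1.42.0, RLE factors, library totals, SRPBM depth, other read minimums, each library left out, other host rules and sums over junctions within 5 nt. Sums within 10 nt and the test of circle usage were added after the data were seen.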

Additional observations from a re-analysis of the deposited data

How the results depend on the processing

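The log2 change of Fgfr2 output ranged from -0.75 to -0.43 over all alternatives and passed only with DESeq2 (-0.56). The -0.75 came with depth from SRPBM, which moved the median of all hosts to -0.24, so relative to that median Fgfr2 was lower under each scaling. Leaving out single libraries gave -0.69 to -0.43 for Fgfr2, -1.30 to -0.49 for Pdgfra, -7.19 to -0.71 for Ephb4 and -0.76 to 0.15 for Met, which reversed without control replicate 2.

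In the labels, same-numbered libraries share only a number, and the correlation of their deviations was 0.032 over 2209 hosts. With 2 libraries per group, this cannot show whether they share a culture or mouse. With the replicate block, 20 hosts, 61 circRNAs and 25 circle usages passed, against 0, 3 and 9 without it, and Fgfr2 output did not. At an unadjusted p under 0.05 there were 222 hosts and 528 circRNAs. DESeq2 called 55 hosts and 106 circRNAs. A minimum of 1 read gave 12 hosts and 61 circRNAs, and of 50 reads 0 circRNAs and 5 usages, and 200 reads gave 3 usages. Sums within 5 or 10 nt left 0 circRNAs and 1 usage. Without single libraries 1 to 5 hosts, 0 to 10 circRNAs and 7 to 21 usages passed.

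Among circles, direction reversed for circRNA.34426 without control replicate 2 and for circRNA.34427 without control replicate 1. It also reversed for circRNA.34438 without control replicate 1 and for circRNA.34439 without IL-1β replicate 1. For circRNA.32078 of Met, it reversed without IL-1β replicate 1 or control replicate 2. Leaving out single libraries, the log2 changes of these circles ran from -8.57 to 6.42, -0.31 to 1.75, -0.83 to 0.15, -0.60 to 0.20 and -1.03 to 0.41, in that order. Summed with circRNA.34432 within 10 nt, circRNA.34427 gave -0.65 in place of a positive change. The causes were not tested. With 2 libraries per group and few reads outside Fgfr2, most single circles were not resolved from the spread between libraries.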
